A study of Mus musculus with 13 samples.

Results

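The genes for the nuclear-encoded subunits of respiratory complex I were compared in the retina of PGC-1α knockout (KO) and wildtype (WT) mice, in darkness and after bright light. Every gene whose symbol starts with Ndufa, Ndufb, Ndufc, Ndufs or Ndufv was taken, without the assembly factors (Ndufaf) and without Ndufa4l2, and this gave 35 genes with 40 probe sets among the 19937 genes measured. Ndufb1 and Ndufb4 were not analysed here, since Ndufb1 was not named in the probe annotation used and the probe sets of Ndufb4 carried several symbols. KO mice lacked PGC-1α in every tissue on a C57 BL/6 background, and WT mice were C57 BL/6 NRj animals that were bought in, not littermates. All mice were 6 to 13 weeks old and were dark adapted for 16 h. The KO dark group (3 arrays) and the WT dark group (4 arrays) received no light, whereas the KO light group (3 arrays) and the WT light group (3 arrays) were exposed to 15000 lux for 2 h. Each array held RNA of 2 pooled retinae of 1 mouse. The labels place the removal of the retinae after the exposure and the methods after a night of recovery in darkness, so the interval is not settled.

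Complex I takes electrons from NADH, passes them along a chain of iron-sulfur clusters to ubiquinone and pumps protons across the inner mitochondrial membrane. It is L-shaped: a matrix arm carries the electron chain, and a membrane arm carries the proton pumps, which are encoded by mitochondrial DNA. Around the catalytic core sit accessory subunits that are needed for assembly and stability. PGC-1α is a transcriptional coactivator known for driving nuclear genes of mitochondria together with nuclear respiratory factors and estrogen-related receptors. Rod photoreceptors, the main cell type of the mouse retina, pack mitochondria into their inner segments and use much energy in darkness.

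Values are log2 probe set intensities, so that a difference of 1 is a doubling, and levels of different genes cannot be compared with each other. A gene was called changed where limma gave a Benjamini-Hochberg adjusted p under 0.05 and the ratio reached 1.2 upwards or 0.87 downwards. Fits used 3 arrays of each group, without the array labelled WT dark 4. The arrays labelled KO light 3 and WT dark 4 stood apart from their labels. Over all genes the array labelled KO light 3 correlated on average at 0.997 with WT dark 1 to 3 and at 0.992 with KO light 1 and 2, while the array labelled WT dark 4 had 0.989 with WT dark 1 to 3 and 0.995 with the KO light arrays. With KO dark and WT light the averages were 0.996 and 0.995 for KO light 3, and 0.99 and 0.993 for WT dark 4. KO light was therefore analysed also with WT dark 4 in the place of KO light 3, called the exchanged arrays below. Ppargc1a itself was at 10.40, 10.19 and 10.26 in KO dark, 10.03, 10.01, 10.02 and 9.96 in WT dark, 10.02, 10.25 and 9.96 in KO light and 9.96, 9.85 and 9.99 in WT light. The sources used here do not say where its probes lie relative to the deleted part of the gene, and these values do not check the genotypes. By label, all mice kept in darkness were female apart from WT dark 4, and those exposed to light were male. Xist was at 11.86 to 12.02 and Uty at 4.14 to 4.42 in the female-labelled arrays, and Xist was at 4.67 to 5.31 and Uty at 9.11 to 9.53 in the male-labelled ones. Light and sex cannot be told apart in this design, whereas KO and WT were compared within 1 sex.

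The promoters of the members were read for short sequences of factors that are known to act on mitochondrial genes. The RefSeq windows (GRCm38.p6) held 250 bases before and 50 after each gene start, and 32 of the 35 members had one. Exact matches of 7 letters were counted on both strands: GCATGCG for NRF1, CCGGAAG for ETS factors such as GABP, AAGGTCA for the estrogen-related receptors, AAGATGG for YY1 and TGACGTC for CREB. YY1 letters stood in 21.9% of member promoters (7 of 32) and in 7.28% of all 27025, CREB letters in 12.5% against 3.6%, NRF1 letters in 9.38% against 4.01%, ETS letters in 12.5% against 9.93%, and estrogen-related receptor letters in 6.25% against 5.38%. All 7 YY1 matches (Ndufa3, Ndufa9, Ndufb8, Ndufc1, Ndufs4, Ndufs6 and Ndufs7) lay on the gene's own strand, with the first letter 22 to 38 bases past the start. A match is a description of letters and shows no binding. The 150 bases before the start are shown for Ndufa10 and Ndufs3, which were lower in KO light retinae with the exchanged arrays, for Ndufa8, which was higher in light with them, and for the members that passed the test as labelled, Ndufa4 and Ndufb6. Of the members called with the exchanged arrays alone these are examples with a match. Ndufa1, Ndufa3, Ndufb3, Ndufb5 and Ndufc2, also called with them, held no match in this stretch, and Ndufb2 held CREB letters that start 14 bases before the gene start, and none of these is shown. Capitals mark CREB letters in Ndufa10, where matches on both strands overlap, ETS letters in Ndufs3, and NRF1 letters in Ndufa8, again overlapping on both strands. None of the sequences searched stood in the stretches shown for Ndufa4 and Ndufb6.
Ndufa10, chr1:92473759-92473908, minus strand: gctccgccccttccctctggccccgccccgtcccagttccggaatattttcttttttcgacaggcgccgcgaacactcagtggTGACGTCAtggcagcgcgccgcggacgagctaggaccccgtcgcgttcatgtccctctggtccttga
Ndufs3, chr2:90904722-90904871, minus strand: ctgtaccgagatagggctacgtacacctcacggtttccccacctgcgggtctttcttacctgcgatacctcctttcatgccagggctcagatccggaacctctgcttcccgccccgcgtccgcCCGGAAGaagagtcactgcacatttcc
Ndufa8, chr2:36049339-36049488, minus strand: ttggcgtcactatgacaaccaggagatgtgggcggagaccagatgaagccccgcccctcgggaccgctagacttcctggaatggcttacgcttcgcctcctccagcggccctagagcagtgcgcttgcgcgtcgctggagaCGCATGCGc
Ndufa4, chr6:11907451-11907600, minus strand: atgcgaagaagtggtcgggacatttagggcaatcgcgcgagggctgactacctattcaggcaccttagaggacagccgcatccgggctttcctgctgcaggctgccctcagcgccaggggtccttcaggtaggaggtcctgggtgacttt
Ndufb6, chr4:40279422-40279571, minus strand: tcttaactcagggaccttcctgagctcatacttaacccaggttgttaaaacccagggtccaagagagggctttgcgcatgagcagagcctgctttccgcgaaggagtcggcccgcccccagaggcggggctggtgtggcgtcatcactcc

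The member genes as a whole lay lower in KO than in WT retinae and higher in light than in darkness, by small amounts. Averaged over the 35 genes, log2 intensity was 9.29 in each of the 3 KO dark arrays, 9.35 to 9.41 in WT dark 1 to 3, 9.38 and 9.44 in KO light 1 and 2, and 9.45 to 9.50 in WT light. KO light 3 was at 9.32, between KO dark and WT dark, and the array labelled WT dark 4 was at 9.41, between KO light 1 and 2. In the KO dark arrays 29 to 31 of the 35 genes were below their WT dark mean, where 43.1% to 54.0% of all genes were below theirs. In the WT light arrays 23 to 27 members were above it, where 43.6% to 46.1% of all genes were below theirs. In a tissue measured as a whole, fewer cells of a type and less RNA per cell cannot be told apart.

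**Figure D1:**
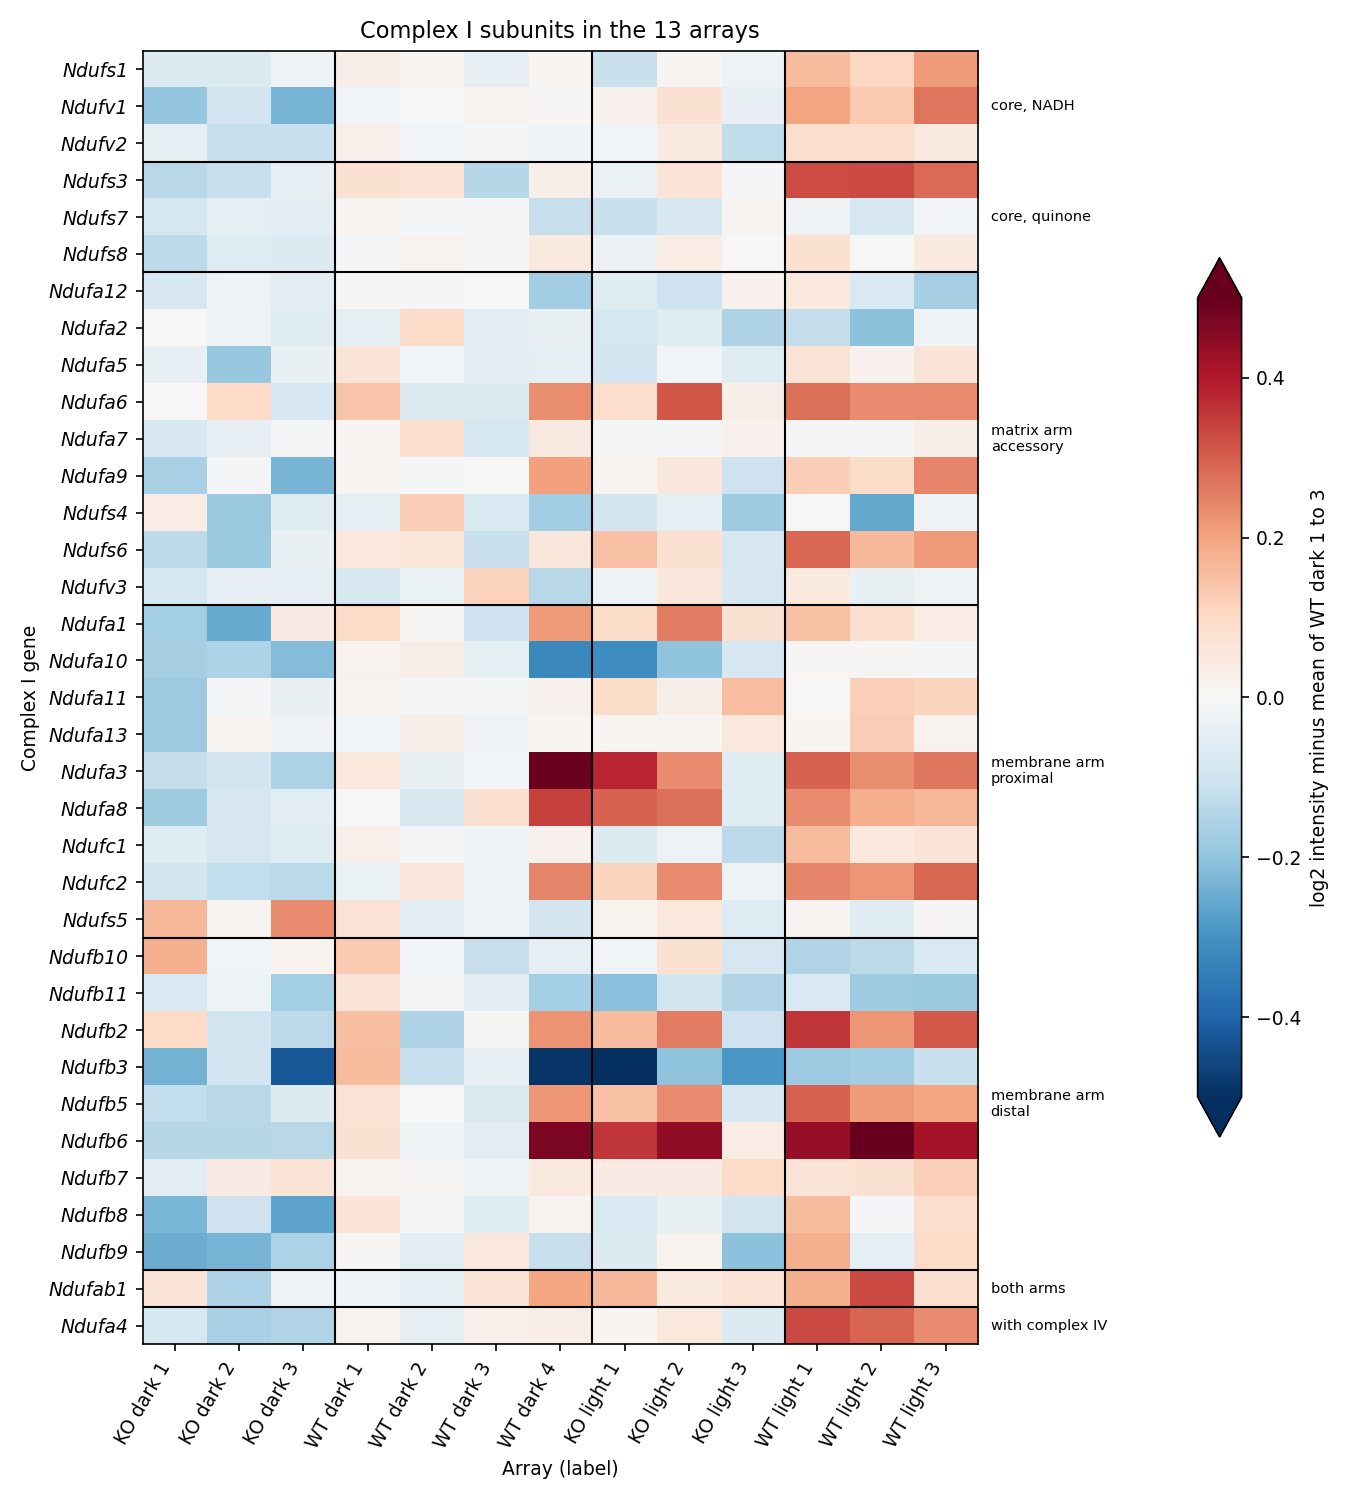
Log2 intensity of each of the 35 complex I genes (rows, by role) in each of the 13 arrays (columns, by label), as the difference from the mean of WT dark 1 to 3, with blue below and red above that mean. The KO dark columns are mostly blue and the WT light columns mostly red, and the array labelled WT dark 4 looks like KO light 1 and 2 at Ndufa3 (10.41 against 10.30 and 10.15) and Ndufb6 (10.17 against 10.06 and 10.15). At these genes the WT light arrays lie at similar levels, 10.15 to 10.21 for Ndufa3 and 10.12 to 10.22 for Ndufb6.

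In darkness, the loss of PGC-1α went with lower levels of most members. The KO dark mean was below the WT dark mean for 31 of the 35 genes (48.4% of all genes), and the median log2 difference was -0.089, against 0.0029 over all genes. For 14 members all 3 KO arrays lay below all 3 WT arrays, a share of 40% where 7.45% of all genes did so, and no member showed the opposite, which 9.26% of all genes did. Among the 9968 genes above the median intensity, which held 34 of the 35 members, 9.71% lay lower without overlap. None of the members passed the test in limma, when 0.0752% of all genes were called. At an unadjusted p under 0.05, 6 were lower (3.33% of all genes) and 1 was higher (3.77%), and no member was called without moderation of the variances either. Rod markers were at 11.97 to 11.99 in KO dark and 11.98 to 12.05 in WT dark (13 genes, mean log2 intensity), and 11 of the 13 had a lower mean in KO. Lens genes were at 7.23 to 7.99 in KO dark and 6.71 to 7.37 in WT dark (12 genes, of which 11 had a higher mean in KO, with a median difference of 0.37). Amacrine markers were at 9.74 to 9.77 in KO dark and 9.62 to 9.66 in WT dark (9 genes) and ganglion cell markers at 9.18 to 9.25 and 9.30 to 9.42 (8 genes), and the part of these cells in the result was not tested.

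After light, the KO mean was the lower for 29 of the 35 members (56.5% of all genes), with a median log2 difference of -0.10 against -0.0145 over all genes. Ndufa4, which is now placed with complex IV, alone passed the test, with 0.0552% of all genes called lower, and 11 members were lower at an unadjusted p under 0.05 (7.17%). The arrays of 11 members did not overlap, all lower in KO, against 8.45% of all genes, and 0 did so in the other direction (5.63%). After the exchange of arrays, the median was -0.049 against -0.0234 over all genes, and 3 members were called lower (Ndufa10, Ndufs3 and Ndufa4), or 8.57% of the members where 3.66% of all genes were called lower. Without overlap, 10 members lay lower (15.4% of all genes) and 2 higher (13.9%), the latter being Ndufa8 and Ndufb10. The lower level in KO light was thus nearer to the background with the exchanged arrays than with the labelled ones. Other cell markers differed between these arrays. Reactive glia and stress genes (13 genes) were at 9.49 and 9.22 in KO light 1 and 2, 9.70 in WT dark 4, 7.82 in KO light 3 and, in the WT light arrays, 7.85 to 8.53, and all 13 had a higher mean in KO light. Rod markers were at 11.65 and 11.82 in KO light 1 and 2, 11.58 in WT dark 4, 11.95 in KO light 3 and, in the WT light arrays, 11.97 to 12.03. Their part in the member results was not tested.

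**Figure D2:**
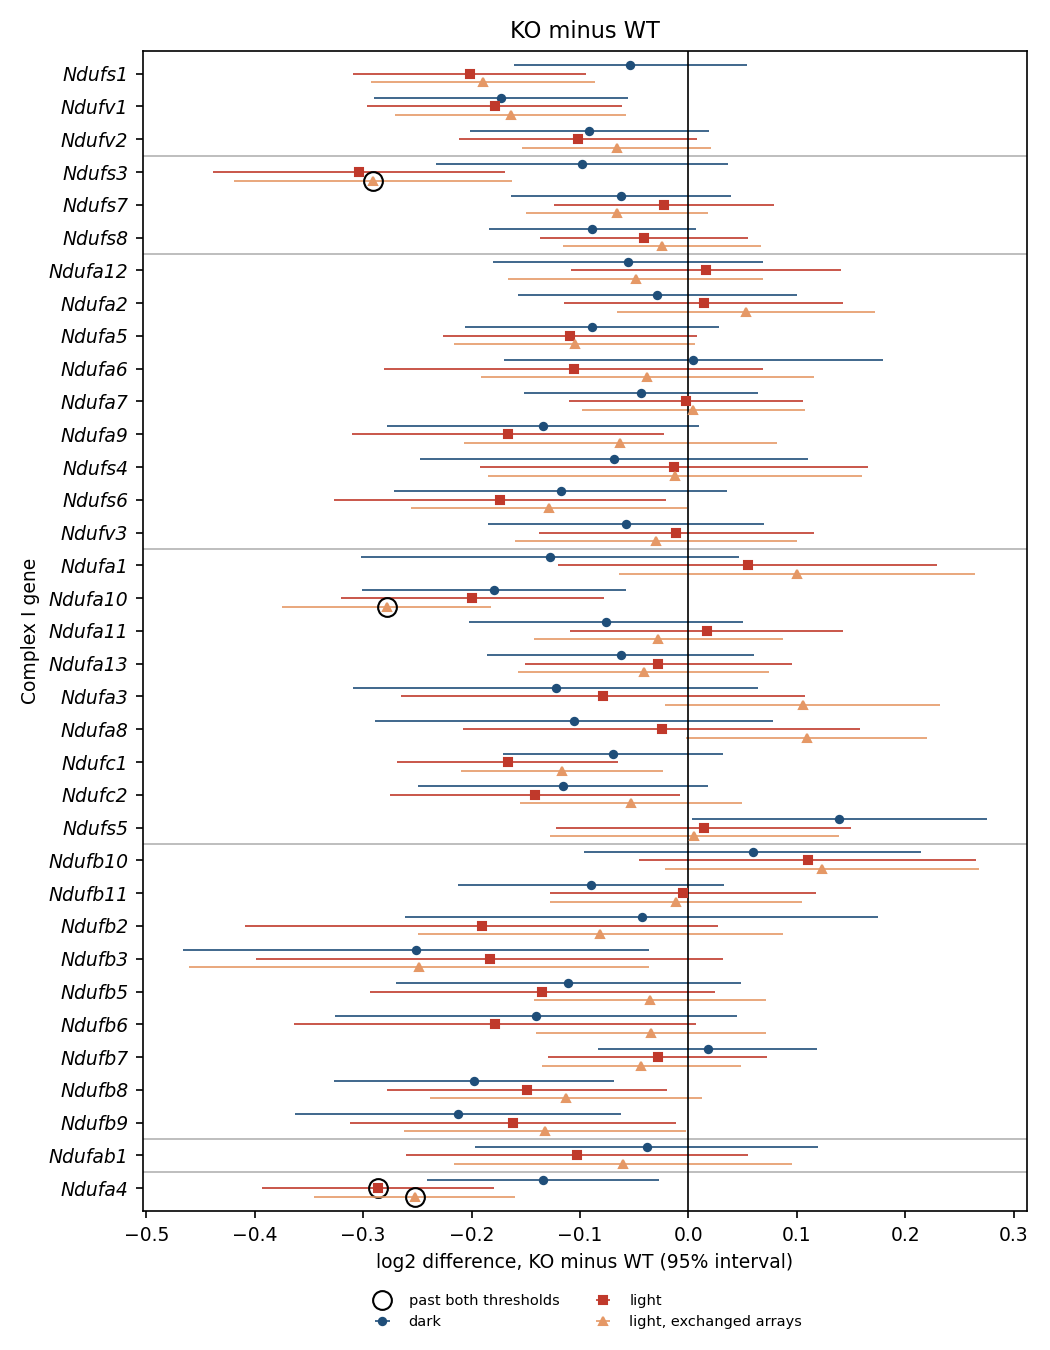
Log2 difference of KO minus WT for each complex I gene, in darkness (circles), after light (squares) and after light with the exchanged arrays (triangles), with 95% intervals from limma and black rings at genes past both thresholds. Most points lie left of 0, and the rings are at Ndufa4 (-0.29, and -0.25 exchanged), Ndufs3 (-0.29 exchanged) and Ndufa10 (-0.28 exchanged).

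Averaged over darkness and light, the genotype difference rested on 6 KO and 6 WT arrays, which are those of the comparisons above. The mean was lower in KO for 33 of 35 members (53.7% of all genes), the median log2 difference was -0.097 against -0.0061 over all genes, and 16 members were lower at an unadjusted p under 0.05 (6.43% of all genes). Ndufa4 alone passed the test, where 0.15% of all genes were called lower, so no member placed with complex I was called. All 6 KO arrays lay below all 6 WT arrays for Ndufa10 and Ndufc1, when 0.356% of all genes did so. Ndufc1, named after its values were seen, was at 9.52 to 9.54 in KO dark, 9.59 to 9.63 in WT dark 1 to 3, 9.48 to 9.58 in KO light and, after light in WT, 9.66 to 9.76, with an averaged difference of -0.12 (SE 0.03, adjusted p = 0.153). Once the arrays were exchanged, only Ndufa10 separated all arrays in this way (0.798% of all genes), since WT dark 4, at 9.63 for Ndufc1, lay within the WT dark range. With the exchanged arrays the median was -0.062 against -0.0101, and 2 members were called lower (Ndufa10 and Ndufb3; 1.48% of all genes). Without the ratio threshold, 8 members had an adjusted p under 0.05 and a lower mean with them, against 3.4% of all genes.

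Light-exposed WT retinae had higher levels of most members than dark WT retinae. The mean was higher for 26 of the 35 genes (56.1% of all genes), with a median log2 difference of 0.078 against 0.0163 over all genes. Ndufa4 and Ndufb6 passed the test and rose, where 0.171% of all genes were called higher. For 17 members all WT light arrays lay above WT dark 1 to 3 (17.5% of all genes, and 26.9% of those above the median intensity), and for Ndufb11 and Ndufs7 they lay below (10.7% of all genes). With the spread estimated from the exchanged arrays, 5 members were called higher, Ndufa3, Ndufa4, Ndufb2, Ndufb6 and Ndufs3, or 14.3% of members against 2.13% of all genes. These 6 arrays are of different sexes by label. Cell markers differed too: the mean was higher in WT light for all 13 reactive glia and stress genes (median log2 difference 0.50) and lower for all 10 pigment epithelium genes (-0.36). For 10 of 12 lens genes the mean was also higher (0.45), but not in every array. Lens genes were at 8.66, 6.68 and 7.35 in WT light and at 7.37, 7.25 and 6.71 in WT dark 1 to 3. Of the marker genes, Best1 of the pigment epithelium was called lower and Cabp5 of bipolar cells and Th of amacrine cells higher, and the part of these cells in the member results was not tested.

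In KO retinae, 27 of 35 members had a higher mean in light than in darkness (48.4% of all genes), with a median log2 difference of 0.09 against -0.0033 over all genes. None was called, when 0.1% of all genes were, while 10 were higher at an unadjusted p under 0.05 (8.0% of all genes) and 1 lower (5.94%). The arrays of 10 members did not overlap and were higher in light (6.44% of all genes), and none were lower (6.67%). After the exchange of arrays, 6 members rose, Ndufa1, Ndufa3, Ndufa8, Ndufb5, Ndufb6 and Ndufc2, or 17.1% of the members against 7.01% of all genes called higher. Without overlap, 17 members were then higher (20.0% of all genes, and 32.9% of those above the median intensity) and none lower (18.0%). All 6 called were membrane arm subunits, of which there were 18 among the 35 members. Without the ratio threshold, 11 members had an adjusted p under 0.05 and a higher mean with these arrays (12.8% of all genes). By mean alone, 13 of 18 membrane arm and 11 of 15 matrix arm members were higher with the exchanged arrays. In the same comparison all 13 reactive glia and stress genes had a higher mean in light (median 1.33 as labelled and 2.02 exchanged, with 13 called), and 12 of 13 rod markers a lower one (-0.17 and -0.30, with 8 called exchanged), and the part of these cells was not tested. The interaction, the difference between the light effect in KO and in WT, was called for none of the 35 members, when 0.0602% of all genes were called as labelled and 2.78% with the exchanged arrays. Without moderation of the variances, 0 members were called in KO light against KO dark and 0 for the interaction. The median interaction was -0.0057 as labelled and 0.025 with the exchanged arrays, and 2 members passed 0.05 before adjustment as labelled (4.04% of all genes were lower at that level), both lower. Once the arrays were exchanged, 1 was lower (8.05% of all genes) and 2 were higher (8.13%). As labelled they were Ndufs3, at -0.21 with an adjusted p of 0.69, and Ndufa4, at -0.15 with an adjusted p of 0.728, by limma.

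**Figure D3:**
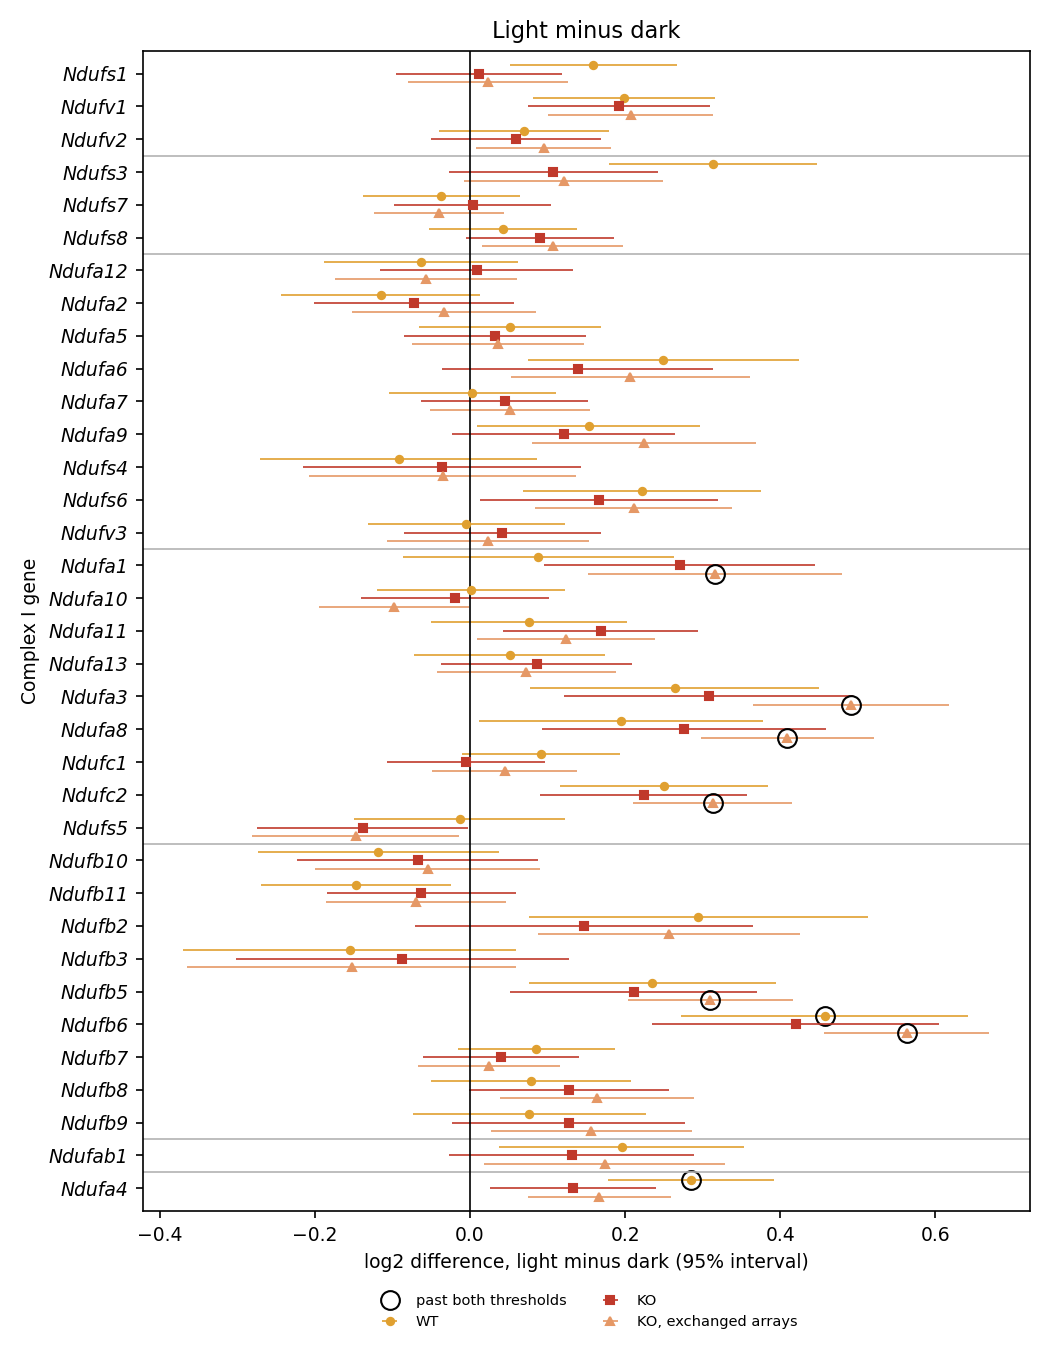
Log2 difference of light minus dark for each complex I gene, in WT (circles), in KO (squares) and in KO with the exchanged arrays (triangles), with 95% intervals from limma and black rings at genes past both thresholds. Ndufb6 lies farthest to the right in each of them (0.46, 0.42 and 0.56), and the genes left of 0 include Ndufb3 (-0.16, -0.087 and -0.15).

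**Figure D4:**
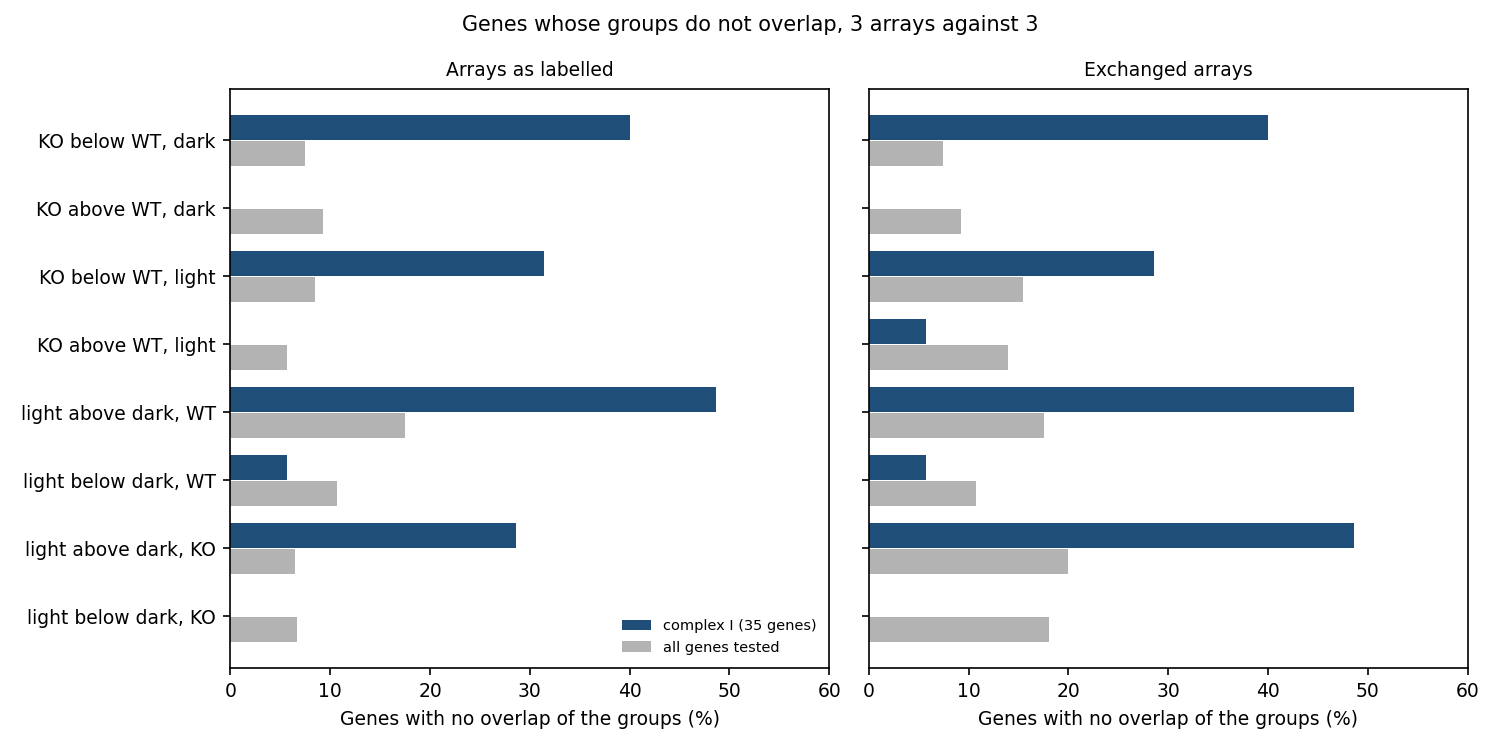
Percentage of genes for which all arrays of one group lie below or above all arrays of the other, 3 arrays against 3, for the 35 complex I genes (blue) and for all 19937 genes (grey), with the arrays as labelled (left) and exchanged (right). In darkness 40% of members and 7.45% of all genes lie lower in KO, and after light the gap is 31.4% to 8.45% as labelled and 28.6% to 15.4% exchanged.

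The 3 core subunits of the NADH-oxidizing tip had lower means in KO in both conditions, and none was called. Ndufv1, which binds NADH and the flavin, was at 9.99, 10.09 and 9.95 in KO dark, 10.17, 10.18 and 10.20 in WT dark 1 to 3, 10.20, 10.26 and 10.14 in KO light and 10.38, 10.32 and 10.45 in WT light. Genotypes did not overlap within either condition, and within each genotype the light arrays lay above the dark ones. The log2 difference was -0.17 in darkness (SE 0.05, adjusted p = 0.363) and -0.18 in light (SE 0.05, adjusted p = 0.207), and averaged over both it was -0.18 (adjusted p = 0.0778, and 0.00955 with the exchanged arrays at a ratio of 0.89). Ndufs1, the largest of the iron-sulfur subunits, was at 9.05, 9.05 and 9.10 in KO dark, 9.15, 9.13 and 9.08 in WT dark 1 to 3, 9.01, 9.13 and 9.10 in KO light and 9.28, 9.23 and 9.34 in WT light. The dark groups overlapped, and the WT light arrays stood above all others. In light its difference was -0.20 (SE 0.05, adjusted p = 0.13, and 0.0213 exchanged), short of the ratio threshold with 0.877 exchanged. Ndufv2, another iron-sulfur subunit, differed by -0.091 in darkness and -0.10 in light (adjusted p = 0.809 and 0.423), and by -0.066 in light with the exchanged arrays.

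Among the core subunits that lead to ubiquinone, Ndufs3 differed most. It was at 9.06, 9.09 and 9.16 in KO dark, 9.28, 9.27 and 9.06 in WT dark 1 to 3, 9.17, 9.27 and 9.19 in KO light, 9.53, 9.54 and 9.49 in WT light and 9.23 in the array labelled WT dark 4. The 3 WT light arrays stood above every other array, and WT dark 3 lay as low as the KO dark arrays. In light KO was lower by -0.30 on the log2 scale (SE 0.06, adjusted p = 0.0733), and with the exchanged arrays it was called, at -0.29 (SE 0.06, adjusted p = 0.00668, a ratio of 0.817). The range of the adjusted p over all alternatives was 0.00442 to 0.413. WT light exceeded WT dark by 0.31 (SE 0.06, adjusted p = 0.0542, and 0.00914 exchanged), and KO light exceeded KO dark by 0.11. Its probe sets differed in size of effect, with -0.44 in one and -0.17 in the other for KO light minus WT light. Ndufs7, which carries the last cluster before ubiquinone, differed by -0.063 in darkness and -0.022 in light (adjusted p = 0.907 and 0.887), and Ndufs8 by -0.089 and -0.041 (adjusted p = 0.754 and 0.745). With the exchanged arrays the differences in light were -0.066 for Ndufs7 and -0.024 for Ndufs8. Both did not overlap between the dark groups, and KO was the lower.

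The 9 accessory subunits of the matrix arm held no called gene. None was called in any comparison with the arrays as labelled or exchanged. Their median KO minus WT difference was -0.058 in darkness and -0.013 in light, with ranges of -0.13 to 0.0044 and -0.17 to 0.017, and with the exchanged arrays the median in light was -0.038. Their median light minus dark difference was 0.003 in WT, 0.042 in KO and 0.036 in KO with the exchanged arrays. Ndufa2, a small subunit with a thioredoxin-like fold, was at 9.77, 9.74 and 9.70 in KO dark, 9.72, 9.86 and 9.71 in WT dark 1 to 3, 9.68, 9.70 and 9.61 in KO light and 9.65, 9.56 and 9.74 in WT light. Within each comparison its groups overlapped, and no difference of this gene passed the test.

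Of the 9 proximal accessory subunits of the membrane arm, Ndufa10 was called between genotypes and Ndufa3, Ndufa8, Ndufc2 and Ndufa1 between KO light and KO dark, all with the exchanged arrays. Ndufa10, a subunit related to nucleoside kinases, was at 10.63, 10.64 and 10.57 in KO dark, 10.81, 10.82 and 10.75 in WT dark 1 to 3, 10.48, 10.59 and 10.71 in KO light, 10.80, 10.80 and 10.78 in WT light and 10.47 in the array labelled WT dark 4. Every KO array was below every WT array of the fit, and KO light 3 was the closest to WT. The difference was -0.18 in darkness (SE 0.06, adjusted p = 0.363) and -0.20 in light (SE 0.06, adjusted p = 0.178). After the exchange of arrays, Ndufa10 was lower in KO light by -0.28 (SE 0.04, adjusted p = 0.00162) and averaged over both conditions by -0.23 (SE 0.03, adjusted p = 0.001), and both were called. Light and dark WT arrays had the same mean, 10.79 ± 0.04 (SD, n = 3) in darkness and 10.79 ± 0.01 (SD, n = 3) in light.

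Ndufa3 was at 9.80, 9.82 and 9.76 in KO dark, 9.97, 9.88 and 9.90 in WT dark 1 to 3, 10.30, 10.15 and 9.86 in KO light, 10.21, 10.15 and 10.18 in WT light and 10.41 in the array labelled WT dark 4. KO light 3 lay among the dark arrays, and WT dark 4 was the highest array. The light effect in KO was 0.31 (SE 0.09, adjusted p = 0.175) as labelled and 0.49 (SE 0.06, adjusted p = 0.000105) exchanged, and in WT it was 0.26 (adjusted p = 0.157, and 0.0179 exchanged). Ndufa8, a cysteine-rich subunit that faces the intermembrane space, was at 9.10, 9.20 and 9.23 in KO dark, 9.29, 9.20 and 9.36 in WT dark 1 to 3, 9.58, 9.56 and 9.22 in KO light, 9.52, 9.46 and 9.45 in WT light and 9.63 in the array labelled WT dark 4. It rose by 0.41 in KO with the exchanged arrays (SE 0.05, adjusted p = 0.000146), after 0.28 as labelled (SE 0.08, adjusted p = 0.201), and in WT light it was above WT dark by 0.19. Once the arrays were exchanged, KO light was above WT light for Ndufa8 by 0.11 (SE 0.05, adjusted p = 0.195), with no overlap, while as labelled it was below by -0.025, so that the direction depends on those 2 arrays.

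Ndufc2 was at 11.66, 11.63 and 11.61 in KO dark, 11.71, 11.81 and 11.73 in WT dark 1 to 3, 11.86, 11.99 and 11.72 in KO light, 11.99, 11.97 and 12.04 in WT light and 11.99 in the array labelled WT dark 4. The KO dark arrays were below all others, and of the KO light arrays only KO light 2 reached the range of WT light. The light effect was 0.22 in KO (SE 0.06, adjusted p = 0.175; 0.31, adjusted p = 0.000551 exchanged, called) and 0.25 in WT (SE 0.06, adjusted p = 0.082). The X-linked Ndufa1, needed for assembly of the membrane arm, was at 6.84, 6.76 and 7.05 in KO dark, 7.11, 7.02 and 6.91 in WT dark 1 to 3, 7.10, 7.27 and 7.09 in KO light, 7.16, 7.09 and 7.05 in WT light and 7.23 in the array labelled WT dark 4. It rose in KO with the exchanged arrays by 0.32 (SE 0.08, adjusted p = 0.00996), and in WT the light effect was 0.088. Ndufa1 was among the members with the most positive KO minus WT difference in light, 0.055 (adjusted p = 0.828), as was Ndufa11, 0.017 (adjusted p = 0.937), whose sign turned with the exchanged arrays. Ndufa11 was at 9.47, 9.65 and 9.62 in KO dark, 9.67, 9.65 and 9.65 in WT dark 1 to 3, 9.75, 9.69 and 9.81 in KO light and 9.65, 9.78 and 9.77 in WT light, with overlap between the light groups.

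Ndufs5 was the member with the most positive KO minus WT difference in darkness. It was at 8.54, 8.39 and 8.61 in KO dark, 8.45, 8.32 and 8.35 in WT dark 1 to 3, 8.39, 8.43 and 8.31 in KO light and 8.39, 8.32 and 8.38 in WT light. The dark groups overlapped through KO dark 2. The difference was 0.14 in darkness (SE 0.06, adjusted p = 0.69), and KO light minus KO dark was -0.14 (SE 0.06, adjusted p = 0.351). Other probe sets that name Ndufs5 carry also a pseudogene symbol and were left out.

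The 9 distal accessory subunits of the membrane arm held the largest light effect, that of Ndufb6. It was at 9.56 in each of the 3 KO dark arrays, 9.78, 9.69 and 9.64 in WT dark 1 to 3, 10.06, 10.15 and 9.74 in KO light, 10.14, 10.22 and 10.12 in WT light and 10.17 in the array labelled WT dark 4. All light arrays lay above all dark ones of the fit except KO light 3, which fell among the WT dark arrays. Ndufb6 rose in WT light by 0.46 (SE 0.09, adjusted p = 0.0445), a ratio of 1.37, with adjusted p of 9.54e-05 to 0.301 over the alternatives, and this call was lost on leaving out any single KO dark, WT dark or WT light array. In KO the light effect was 0.42 (SE 0.09, adjusted p = 0.0858), and the exchanged arrays gave a called rise of 0.56 (SE 0.05, adjusted p = 1.32e-05). KO dark was below WT dark by -0.14 without overlap (SE 0.09, adjusted p = 0.841).

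Ndufb5 was at 8.86, 8.85 and 8.92 in KO dark, 9.06, 8.99 and 8.91 in WT dark 1 to 3, 9.13, 9.22 and 8.91 in KO light, 9.28, 9.20 and 9.18 in WT light and 9.20 in the array labelled WT dark 4. KO light 3 again lay with the dark arrays. Its light effect in KO was 0.21 (adjusted p = 0.24) as labelled and 0.31 (SE 0.05, adjusted p = 0.000767) exchanged, the latter called. Ndufb2 was at 8.27, 8.07 and 8.04 in KO dark, 8.32, 8.02 and 8.18 in WT dark 1 to 3, 8.33, 8.43 and 8.07 in KO light, 8.53, 8.39 and 8.48 in WT light and 8.39 in the array labelled WT dark 4. WT light was above WT dark without overlap, by 0.29 (SE 0.10, adjusted p = 0.173; 0.0386 exchanged, called).

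Ndufb3 had the most negative genotype difference in darkness. It was at 7.79, 7.93 and 7.60 in KO dark, 8.18, 7.91 and 7.98 in WT dark 1 to 3, 7.50, 7.82 and 7.73 in KO light, 7.84, 7.85 and 7.91 in WT light and 7.53 in the array labelled WT dark 4. The dark groups overlapped through KO dark 2, and the light groups did not overlap. The difference was -0.25 in darkness (SE 0.10, adjusted p = 0.582) and -0.18 in light (SE 0.10, adjusted p = 0.463). Averaged over both it was -0.22 (adjusted p = 0.218), and the exchanged arrays gave a called difference of -0.25 (SE 0.07, adjusted p = 0.0407). The Ndufb3 mean in WT was lower in light than in darkness, by -0.16 (adjusted p = 0.447).

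Ndufb9 and Ndufb8 lay below WT in all 3 KO dark arrays. Ndufb9 was at 9.56, 9.57 and 9.64 in KO dark, 9.81, 9.74 and 9.85 in WT dark 1 to 3, 9.73, 9.82 and 9.60 in KO light and 9.98, 9.76 and 9.90 in WT light. Ndufb8 was at 8.72, 8.84 and 8.68 in KO dark, 9.01, 8.94 and 8.89 in WT dark 1 to 3, 8.87, 8.91 and 8.85 in KO light and 9.10, 8.94 and 9.03 in WT light. Their dark differences were -0.21 (SE 0.07, adjusted p = 0.412) and -0.20 (SE 0.06, adjusted p = 0.323). As labelled the groups in light overlapped for Ndufb9 and not for Ndufb8, whose KO light arrays were all lower, and with the exchanged arrays both overlapped. Their KO light minus WT light differences were -0.16 and -0.15 as labelled (adjusted p = 0.353 and 0.325) and -0.13 and -0.11 exchanged (adjusted p = 0.181 and 0.237).

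Ndufb10 had a higher mean in KO in both conditions, and Ndufb7 and Ndufb11 differed little between genotypes. Ndufb10 was at 8.19, 8.00 and 8.03 in KO dark, 8.14, 8.00 and 7.90 in WT dark 1 to 3, 8.00, 8.09 and 7.93 in KO light and 7.86, 7.88 and 7.94 in WT light, and KO minus WT was 0.059 in darkness and 0.11 in light (adjusted p = 0.964 and 0.56). Ndufb7 was at 8.40, 8.50 and 8.53 in KO dark, 8.48, 8.46 and 8.44 in WT dark 1 to 3, 8.50, 8.50 and 8.55 in KO light and 8.52, 8.53 and 8.58 in WT light, and its dark difference of 0.018 (adjusted p = 0.99) turned to -0.0067 without KO dark 3. As labelled the groups of both genes overlapped except that WT light lay above WT dark for Ndufb7. With the exchanged arrays KO light lay above WT light for Ndufb10, by 0.12 (adjusted p = 0.268), and below it for Ndufb7, by -0.044 (adjusted p = 0.553), against -0.028 as labelled. The X-linked Ndufb11 was at 10.49, 10.55 and 10.40 in KO dark, 10.64, 10.56 and 10.52 in WT dark 1 to 3, 10.36, 10.47 and 10.42 in KO light and 10.49, 10.39 and 10.38 in WT light. Its WT light arrays were all below WT dark, by -0.15 (SE 0.06, adjusted p = 0.212). KO minus WT was -0.09 in darkness, -0.0051 in light and -0.012 in light with the exchanged arrays.

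Ndufa4 carries a complex I name but is now placed with complex IV, cytochrome c oxidase, and as labelled it was called in 3 comparisons, the most of any member. It was at 9.44, 9.36 and 9.37 in KO dark, 9.55, 9.48 and 9.55 in WT dark 1 to 3, 9.54, 9.58 and 9.46 in KO light, 9.85, 9.82 and 9.76 in WT light and 9.56 in the array labelled WT dark 4. The 3 WT light arrays stood above all others and the 3 KO dark arrays below all others, while WT dark and KO light overlapped. Ndufa4 was lower in KO light than in WT light by -0.29 (SE 0.05, adjusted p = 0.0494, a ratio of 0.82), and averaged over both conditions by -0.21 (SE 0.03, adjusted p = 0.0291). It rose in WT light by 0.29 (SE 0.05, adjusted p = 0.0405, a ratio of 1.22), and in KO the light effect was 0.13 (adjusted p = 0.263). In darkness the KO minus WT difference was -0.13 (SE 0.05, adjusted p = 0.527). These calls lay close to the threshold: the adjusted p ranged from 0.00188 to 0.489 over the alternatives for KO light against WT light, from 0.00177 to 0.103 for the average and from 0.000772 to 0.138 for WT light against WT dark. The call in light was lost on leaving out any single array of the fit other than KO light 3. Ndufab1, the mitochondrial acyl carrier protein found in both arms, had probe sets that disagreed, with WT light minus WT dark at 0.45 in one and -0.055 in the other, and its mean over both was called in no comparison.

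**Figure D5:**
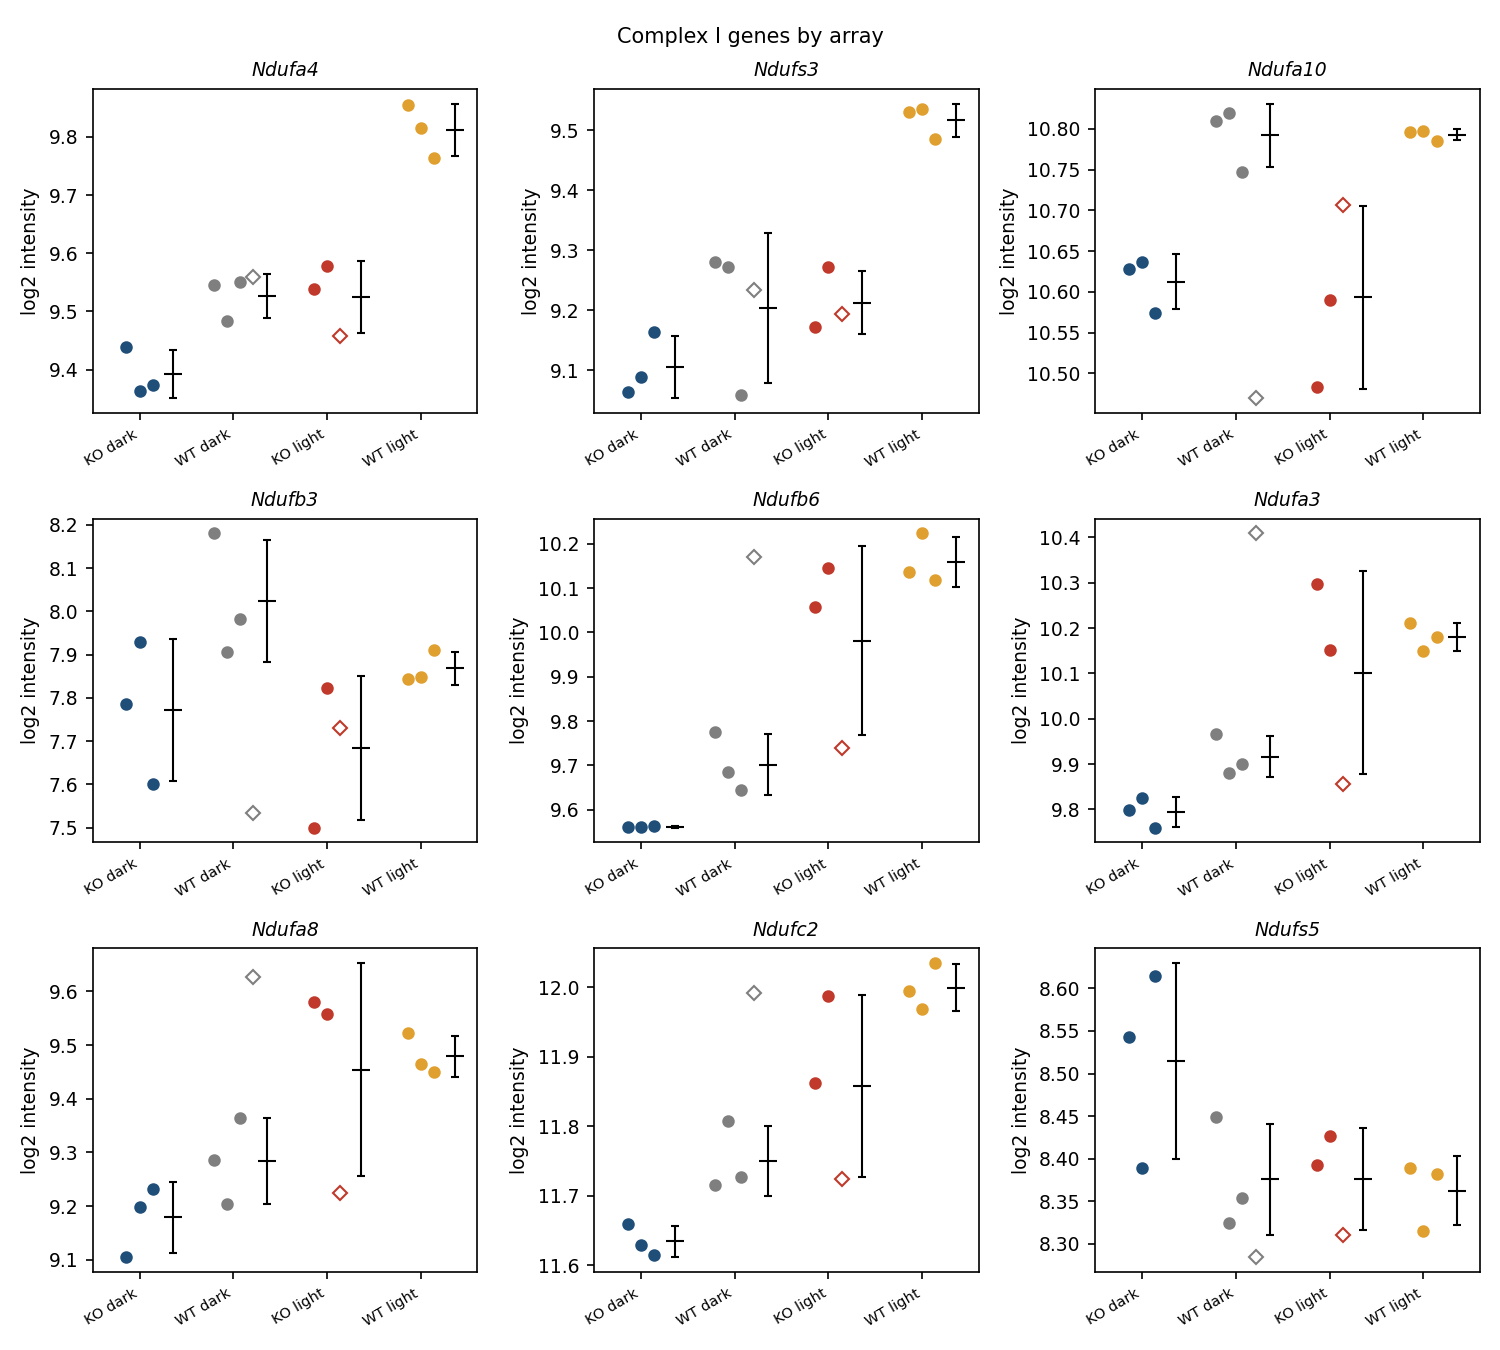
Log2 intensity of 9 complex I genes in every array, by group, with open diamonds for the arrays labelled KO light 3 and WT dark 4 and black bars for the mean ± SD of 3 arrays per group (WT dark 1 to 3). For Ndufb6, Ndufa3, Ndufa8 and Ndufc2 the open diamonds lie apart from their group's other arrays, above them in WT dark and below them in KO light, while for Ndufa4 and Ndufs3 WT light stands above every other array.

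Most other genes of the respiratory chain lay in the same directions. Averaged over darkness and light, where 53.7% of all genes had a lower mean in KO and 0.15% were called lower, the mean was lower in KO for 13 of the 14 measured assembly factors of complex I (median log2 difference -0.081), for all 4 genes of complex II (-0.16), all 9 of complex III (-0.063), 8 of 9 of complex IV (-0.11) and 14 of 15 of complex V (-0.083). The only ones called were Sdhd of complex II (-0.42, SE 0.05, adjusted p = 0.0166), Uqcrh of complex III (-0.25, SE 0.04, adjusted p = 0.0288), Cox5a of complex IV (-0.24, SE 0.04, adjusted p = 0.0366) and Atp5g1 of ATP synthase (-0.22, SE 0.03, adjusted p = 0.0189), named here after their values were seen. No assembly factor was called as labelled. After the exchange of arrays, the mean was lower for 12 of 14 assembly factors, 4 of 4, 9 of 9, 7 of 9 and 14 of 15 genes of complexes II to V, and the same 4 genes and Atp5k of ATP synthase (-0.26, SE 0.04, adjusted p = 0.00102) were called lower, where 1.48% of all genes were. In light alone, the exchanged arrays gave the assembly factor Ndufaf6 as called higher in KO than in WT (0.44, SE 0.07, adjusted p = 0.00198 in limma). Of all genes 4.56% were called higher there. Sdhd (-0.42), Uqcrh (-0.26), Cox5a (-0.24), Atp5g1 (-0.22) and Atp5k (-0.22) were called lower in it, where 3.66% of all genes were. Ndufaf6 (0.47) and Ndufaf4 (0.35) were also called higher in exchanged KO light than in KO dark, where 7.01% of all genes were. So were Sdhd (0.27), Uqcrq (0.39), Cox4i1 (0.41), Cox5b (0.32) and Atp5g2 (0.40). With the spread from the exchanged arrays, Sdhd, Uqcrh, Cox5b, Atp5g1 and Atp5k were called lower in KO dark than in WT dark (0.552% of all genes). ND3, the complex I gene of mitochondrial DNA that was measured, differed by 0.0034 averaged over both conditions. In WT light the mean was above WT dark for 11 of 14 assembly factors, 3 of 4 genes of complex II, all 9 of complex III, all 9 of complex IV and 13 of 15 of complex V, with medians of 0.063, 0.18, 0.11, 0.15 and 0.11, and none was called as labelled. Once the arrays were exchanged, 6 of them were called higher (2.13% of all genes), Uqcrb and Uqcr11 of complex III, Cox5a and Cox6a1 of complex IV and Atp5c1 and Atp5g2 of complex V. The 11 regulators of mitochondrial genes had a median KO minus WT difference of -0.028 and none called as labelled. Of the genes of mitochondrial content, 9 of 11 had a lower mean in KO, with a median of -0.044 and none called as labelled. With the exchanged arrays that count was 6 of 11, and for KO light against WT light it went from 9 of 11 (median -0.066) as labelled to 5 of 11 (0.017) exchanged. In that exchanged comparison limma called the regulators Ppargc1b (-0.35, adjusted p = 0.00727) and Esrrb (-0.43, adjusted p = 0.0033) lower in KO, where 3.66% of all genes were. The regulator Pprc1 (0.37, adjusted p = 0.0301) and Hspd1 of mitochondrial content (0.27, adjusted p = 0.0119) were called higher, where 4.56% of all genes were.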

How the data were processed

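RNA of 13 mouse retina samples was measured on Affymetrix Mouse Gene 1.0 ST arrays. The deposited values are linear intensities per probe set, brought to a common level by the authors (array medians 141.1 to 145.65). The submitters' processing notes name Partek, and the sources used here give neither the normalization method nor a version. Of 34760 probe sets, 21640 carried 1 gene symbol, 1321 several and 11799 none, and probe sets with 1 symbol were put on a log2 scale and averaged per gene. A linear model of 4 groups was fitted to 12 arrays (8 residual degrees of freedom) over all 19937 genes with limma 3.58.1 in R 4.3.3, using moderated variances and Benjamini-Hochberg adjustment. WT dark 4 was left out, and the exchanged arrays have it in place of KO light 3. The interaction was called by adjusted p alone. Tables and figures were made with Python 3.11.15, pandas 2.3.3 and matplotlib 3.10.9, and the fit was tested on simulated data.

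Groups came from the labels, with 1 mouse per array, so the number of arrays limits the precision. With 3 arrays against 3, an exact permutation test of 1 gene cannot go below p = 0.10. The members, roles, gene lists and tests were chosen with earlier results of these data known. Given in every array were the members called in any comparison, as labelled or exchanged. The 3 most negative and 3 most positive of each comparison were given at least in the 12 arrays of the main fit. Other core subunits and Ndufab1 were given by differences. Alternatives were all 13 arrays, each array left out, only the compared groups, no moderation, quantile normalization, no dimmest 25% of probe sets, a pseudocount of 16, the brightest probe set, a replicate block and other ratio thresholds. Replicate numbers do not pair the mice.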

Additional observations from a re-analysis of the deposited data

Results flagged for a closer look

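Among the 4 WT dark arrays, 1 array stood apart from the other 3 for 6 of the 35 members by more than Dixon's critical gap, which chance passes in about 1 in 20 groups. The array labelled WT dark 4 was the one apart for 4 of them, at 9.20 for Ndufa12, 10.41 for Ndufa3, 9.66 for Ndufa9 and 11.96 for Ndufs7 (log2 intensity). WT dark 2 stood apart for Ndufa2 at 9.86, and WT dark 3 for Ndufs6 at 8.53. The same count was not made over all genes, so whether the members differ from other genes in this was not tested. Over all genes WT dark 4 correlated on average at 0.989 with WT dark 1 to 3, and it is the only male of the 4 by label. WT dark 4 was not in the main fit.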

How the results depend on the processing

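The median over the members kept its sign under each alternative for all comparisons other than the interaction, whose median was 0.025 with the exchanged arrays, 0.0347 with the brightest probe set per gene and -0.0186 to 0.0371 with single arrays left out. For KO light against WT light, 3 members were called with the exchanged arrays and 3 when both arrays changed places (13 arrays, an alternative chosen after seeing the data), and 0 with all 13 arrays, only the compared groups, no moderation, the brightest probe set, the replicate block or a ratio of 0.80. The median was -0.0486 with the exchanged arrays and also when both changed places. For KO light against KO dark, 6 were called with the exchanged arrays and 6 with both changing places, and the median was 0.0592 with the brightest probe set. For WT light against WT dark, 5 were called with the exchanged arrays, 5 with both changing places, 4 with only the compared groups, 1 with all 13 arrays, 1 after quantile normalization (median 0.0426) and 0 without moderation or with the replicate block. For the average, 2 were called with the exchanged arrays (median -0.0622, and -0.0628 with both changing places), and 0 with the replicate block or a ratio of 0.80.

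With single arrays left out, 0 to 4 members were called for KO light against WT light (median -0.1307 to -0.0541), 0 to 6 for KO light against KO dark (median 0.07 to 0.107), 0 to 5 for WT light against WT dark (median 0.0657 to 0.0944), 0 to 1 for the average (median -0.11 to -0.0646), and 0 for the interaction and for KO dark against WT dark (median -0.0963 to -0.0747). The counts of 4, 6 and 5 came without KO light 3, when 1045, 1981 and 857 of the 19937 genes were called. Signs turned for Ndufa1 in KO light against WT light without KO light 2 (-0.0035), for Ndufa11 in the same comparison with the exchanged arrays and with both changing places (-0.0278), without KO light 3 (-0.0143), without WT light 1 (-0.0231) and with the brightest probe set (-0.0153), for Ndufb3 in KO light against KO dark without KO light 1 (0.0051), for Ndufb7 in KO dark against WT dark without KO dark 3 (-0.0067) and with both changing places (-0.0057), and for its average without KO dark 1 (0.0128) and WT light 3 (0.003). With single arrays left out these ranged from -0.0035 to 0.0874 for Ndufa1, -0.0231 to 0.0473 for Ndufa11, -0.1732 to 0.0051 for Ndufb3, -0.0067 to 0.0539 for Ndufb7 in darkness and -0.0176 to 0.0128 for its average. The cause was not tested.

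Over all genes, the count called was 15 for KO dark against WT dark, 35 for KO light against WT light, 20 for KO light against KO dark, 86 for WT light against WT dark, 48 for the average and 12 for the interaction. With the exchanged arrays it was 175, 1640, 2653, 880, 643 and 555, and without moderation 4, 5, 10, 18, 13 and 1. It was 9, 12, 0, 22, 24 and 7 with all 13 arrays, and 209, 1657, 2644, 1099, 661 and 741 with both arrays changing places. Only the compared groups gave 0 for KO light against WT light and 680 for WT light against WT dark. The member counts under the alternatives moved together with these counts over all genes. The replicate block gave 13, 11, 11, 17, 24 and 3 over all genes and 0 members in each comparison, but replicate numbers did not pair the mice, with correlations of same-numbered arrays' deviations of -0.192 to 0.22.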
